A study of Mus musculus with 12 samples.

Results

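Collagens are the main structural proteins of the extracellular matrix, and fibroblasts are their chief source in connective tissue. Each collagen is a triple helix of alpha chains, wound in the endoplasmic reticulum after proline and lysine residues have been hydroxylated, then secreted, trimmed of its propeptides and cross-linked. Fibrillar collagens (types I, II, III, V, XI, XXIV and XXVII) form the load-bearing fibrils, type IV collagen forms the sheet-like network of basement membranes, fibril-associated collagens decorate fibrils, and other types build beaded filaments (VI), anchoring fibrils (VII), hexagonal networks (VIII and X) or basement membrane zone proteoglycans (XV and XVIII).

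The 44 collagen chain genes described here were the protein-coding genes of the expression table whose mouse symbol reads Col, a number, a and a number, out of 34866 listed genes, of which 21850 were protein-coding. They comprised 11 fibrillar, 6 basement membrane, 9 fibril-associated and 18 other chains. Polyadenylated RNA was sequenced from mouse embryonic fibroblasts (MEFs) in 4 groups of 3 libraries: male wild-type (WT), male Sirt3 knockout (KO), female WT and female KO. Sirt3 encodes a mitochondrial deacetylase. Levels are given as TPM, the share of a library's transcripts after correction for transcript length, scaled to the same total in every library, so chains can be compared with one another within a library.

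The MEFs came from single embryos of 13 days, of the 129S1/SvImJ stock for WT and of a separate Sirt3 KO stock for KO, with sex read from Sry by PCR. All 4 groups were immortalized with a plasmid carrying SV40 T antigen, and passage 6 cells were lysed 48 h after seeding at 400000 cells per well. The wells were in triplicate and the number of lines per group is not stated in the sources used here, so the p-values may measure only the spread between wells, and genotype, stock, sex and line cannot be told apart. Sirt3 mRNA itself was at 6.59, 7.17 and 9.07 TPM in the male WT libraries, 8.88, 10.9 and 11.00 TPM in the male KO libraries, 7.40, 7.60 and 8.69 TPM in the female WT libraries and 7.57, 9.06 and 8.19 TPM in the female KO libraries. It was not lower in the libraries labelled KO (log2FC 0.39, SE 0.142, adjusted p = 0.0981 in males and log2FC 0.059, SE 0.107, adjusted p = 0.772 in females). The gene-level values do not show which exons the reads came from. The paper also shows a blot that includes Sirt3 protein, whose bands were not available here. KO and WT below mean libraries labelled KO and labelled WT, and every direction given rests on those labels.

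The fibroblast label was checked against 9 marker genes, whose summed level was between 4549 and 5208 TPM in all 12 libraries, most of it from Vim and Fn1. Of the 8 tested, 2 rose (Thy1 and Pdgfrb) and 2 fell (Prrx1, -0.60, adjusted p = 0.000876, and Twist1, -0.38, adjusted p = 0.0052) in male KO, and 5 rose in female KO (Thy1, Pdgfrb, Prrx1, Pdgfra and Dcn). Lum stayed under 0.5 TPM. Markers of other cell types were less abundant and not even across the groups. The 4 epithelial markers summed to 9.47 to 10.6 TPM in male WT and 0.603 to 1.12 TPM in male KO, and to 6.35 to 7.46 TPM in female WT and 1.80 to 2.25 TPM in female KO. Krt18 and Epcam, at up to 8.48 and 2.94 TPM, fell in both sexes, and Cdh1 and Krt8 stayed under 0.5 TPM. The 3 mesothelial markers summed to 27.9 to 33.0 and 4.77 to 7.49 TPM in male WT and KO, and to 14.5 to 17.5 and 5.53 to 6.60 TPM in female WT and KO. Most of this was Msln, which fell in both sexes (-3.70, adjusted p = 1.75e-05 and -1.04, adjusted p = 0.00132), whereas Wt1 rose in male KO (1.25, adjusted p = 0.00592) and fell in female KO (-1.55, adjusted p = 0.00337). The 3 neural markers summed to 75.3 to 77.2 and 52.5 to 64.2 TPM in male WT and KO and to 95.5 to 104.4 and 58.3 to 69.4 TPM in female WT and KO. Map2 carried most of it and fell in both sexes, while Tubb3 rose in male KO (0.34, adjusted p = 0.035). The 4 muscle markers summed to 9.21 to 11.2 and 5.10 to 5.47 TPM in male WT and KO and to 12.6 to 15.7 and 7.79 to 9.67 TPM in female WT and KO, with a fall of Acta1 in males (-0.89, adjusted p = 0.00226) and of Des in females (-2.70, adjusted p = 0.000295). Of the endothelial markers, Kdr reached 5.08 TPM and fell in female KO (-1.06, adjusted p = 0.00368), Pecam1 reached 0.604 TPM, and Cdh5 and Tek stayed under 0.5 TPM. Of the leukocyte markers, Cd68 reached 9.93 TPM and was called in neither sex, Ptprc stayed under 0.5 TPM and Adgre1 was listed at 0 in all 12 libraries. Of the bone markers, only Runx2 passed the minimum and was called in neither sex, and of the fat markers Fabp4 fell in male KO (-1.90, adjusted p = 0.000356), Pparg was called in neither sex and Adipoq stayed under 0.5 TPM. The part of these cells in the collagen differences was not tested. In bulk RNA, fewer cells of a type and less RNA per cell cannot be told apart.

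The collagen chains together took a larger share of the library in KO than in WT in both sexes. Their summed level was 7049, 7893 and 7605 TPM in the male WT libraries and 10563, 11353 and 10832 TPM in the male KO libraries. It was 5449, 5629 and 5592 TPM in the female WT libraries and 7875, 7604 and 7841 TPM in the female KO libraries. The KO libraries lay above the WT libraries of the same sex without overlap, and the KO mean was 1.45 times the WT mean in males and 1.40 times in females. As shares of the library these means were 0.752% and 1.09% in males and 0.556% and 0.777% in females. Without Col1a1, which alone held 38.28% to 44.02% of the collagen sum by group mean, the ratios were 1.41 and 1.33. With 3 libraries against 3, the smallest p of an exact permutation test is 0.1, so sums and ratios are described without one.

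**Figure D1:**
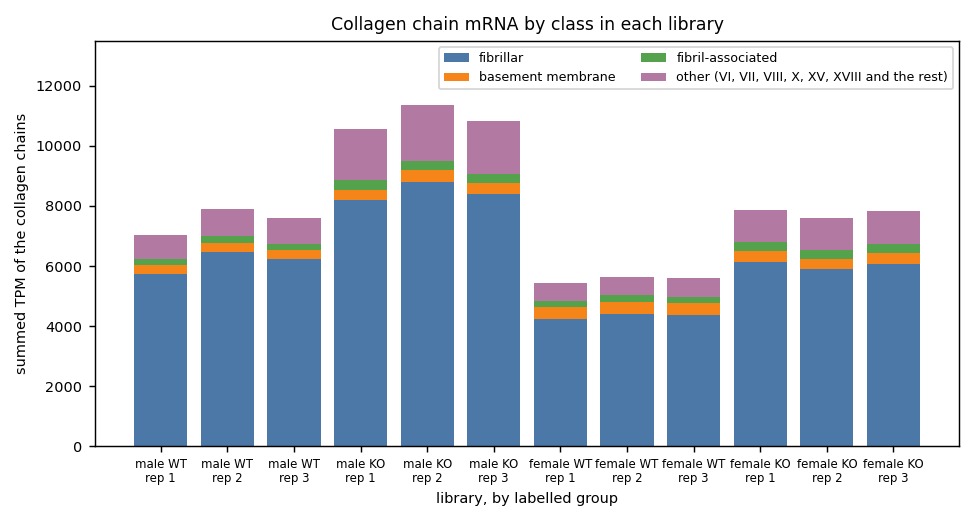
Summed level of the 44 collagen chains in each of the 12 libraries (TPM, linear axis from 0), stacked by class. The male KO libraries reach 10563 to 11353 TPM against 7049 to 7893 TPM in male WT, and fibrillar chains make up most of every bar.

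Of the 44 chains, 28 averaged 1 TPM or more across the 12 libraries and were tested: 10 fibrillar, 4 basement membrane, 4 fibril-associated and 10 other chains. The remaining 16 lay under that minimum and ranged from 0 to 2.43 TPM over the libraries. They were the fibrillar Col24a1, the basement membrane chains Col4a3 and Col4a4, the fibril-associated Col9a1, Col9a2, Col14a1, Col19a1 and Col22a1, and the other chains Col6a4, Col6a5, Col6a6, Col13a1, Col17a1, Col23a1, Col25a1 and Col28a1. Among the tested chains, 13 averaged 100 TPM or more and 20 averaged 10 TPM or more. Col9a3 and Col20a1 passed the minimum although some group means were under 1 TPM, and neither was called in any comparison.

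Chains were tested with limma on log2(TPM + 1) over all 12504 genes that passed the minimum, and a chain was called at a Benjamini-Hochberg adjusted p under 0.05. Log2 fold changes (log2FC) below are KO minus WT on this scale, which understates the change of weakly expressed genes. In males, 15 of the 28 tested chains rose and 4 fell at this threshold. Of all tested genes, 21.6% were called in males, 10.7% as higher and 10.9% as lower. In females, 13 chains rose and 1 fell, while of all tested genes 11.5% were called, 5.63% as higher and 5.84% as lower. The median log2FC of the tested chains was 0.34 in males and 0.34 in females, against -0.015 and -0.023 over all tested genes. The libraries of the groups compared did not overlap for 25 of the 28 chains in males, where 40.0% of all tested genes did not, and for 21 in females, where 33.6% did not. Among genes averaging 10 TPM or more, 17 of 20 chains were called in males and 13 of 20 in females, against 23.7% and 13.0% of 8616 genes.

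**Figure D2:**
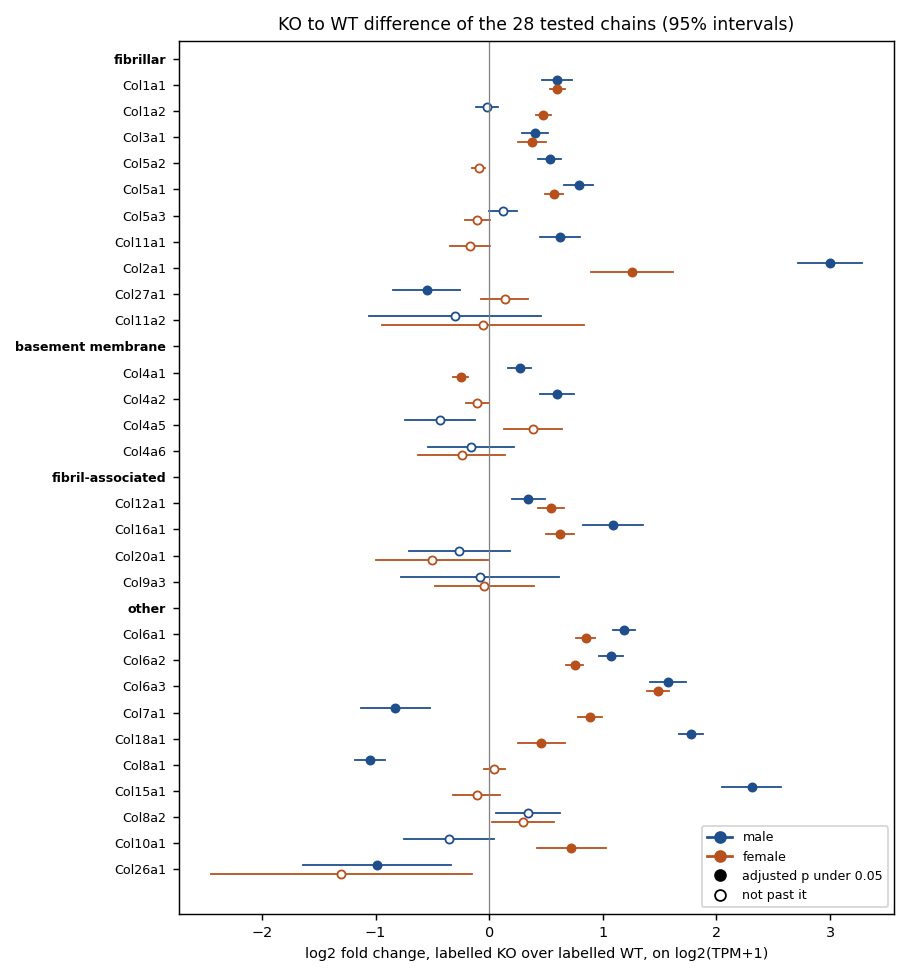
Log2 fold change of KO over WT on the log2(TPM + 1) scale for the 28 tested chains, by class, with 95% intervals, in males (blue) and females (orange). Filled points passed an adjusted p of 0.05. Col6a1, Col6a2 and Col6a3 lie right of 0 in both sexes, while Col7a1 lies at -0.83 in males and 0.89 in females.

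Of the fibrillar chains, 6 rose and 1 fell in male KO, and 5 rose in female KO, of 10 tested. Shares of all tested genes were 10.7% higher and 10.9% lower in males and 5.63% higher in females. Col1a1 and Col1a2 (chr11:94936224-94953042 and chr6:4504814-4541544, GRCm38) encode the alpha 1 and alpha 2 chains of type I collagen, the principal fibril of skin, tendon and bone. Col1a1 was the most abundant chain in every library, between the 7th and the 67th most abundant of all genes. It was at 2937, 3348 and 3268 TPM in the male WT libraries, 4627, 5047 and 4745 TPM in the male KO libraries, 2082, 2181 and 2118 TPM in the female WT libraries and 3272, 3155 and 3255 TPM in the female KO libraries. Each KO library lay above each WT library of its sex, and each male library above each female library of the same label. The male WT and female KO libraries overlapped. Col1a1 rose in male KO (log2FC 0.60, SE 0.0564, adjusted p = 0.000518) and in female KO (log2FC 0.60, SE 0.0265, adjusted p = 7.09e-05), and the interaction, which is the male minus the female difference, was -0.0058 (95% interval -0.15 to 0.14, adjusted p = 0.972).

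Its partner did not follow the same pattern. Col1a2 was at 1233, 1365 and 1311 TPM in the male WT libraries, 1256, 1308 and 1289 TPM in the male KO libraries, 996, 1041 and 1024 TPM in the female WT libraries and 1446, 1386 and 1427 TPM in the female KO libraries. The male WT and male KO libraries overlapped, whereas the female KO libraries were all above the female WT libraries. Col1a2 rose in female KO (log2FC 0.48, SE 0.0275, adjusted p = 0.000209), was at -0.02 in males with a 95% interval of -0.12 to 0.079 (adjusted p = 0.783), and the sexes differed by -0.50 (adjusted p = 5.89e-05). The Col1a1 to Col1a2 ratio of TPM was therefore 2.38, 2.45 and 2.49 in male WT, 3.68, 3.86 and 3.68 in male KO, 2.09, 2.10 and 2.07 in female WT and 2.26, 2.28 and 2.28 in female KO. The male KO libraries stood apart from the other 9.

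Type III collagen, a homotrimer of the Col3a1 chain (chr1:45311538-45349706), is found beside type I in skin, vessels and hollow organs. Col3a1 was at 628, 712 and 661 TPM in the male WT libraries, 869, 890.0 and 883 TPM in the male KO libraries, 252, 262 and 284 TPM in the female WT libraries and 336, 342 and 359 TPM in the female KO libraries. All male libraries were above all female libraries, and within each sex KO was above WT. It rose by 0.40 (adjusted p = 0.00144) in males and 0.38 (adjusted p = 0.00623) in females on the log2 scale. Its male over female log2FC was 1.32 (adjusted p = 3.95e-05) in WT and 1.35 (adjusted p = 1.97e-06) in KO.

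Type V collagen seeds and limits the diameter of type I fibrils, and its chains are encoded by Col5a1 (chr2:27886425-28039514), Col5a2 (chr1:45374321-45503282) and Col5a3 (chr9:20770050-20815067). Col5a1 was at 299, 341 and 319 TPM in the male WT libraries, 531, 577 and 547 TPM in the male KO libraries, 286, 284 and 291 TPM in the female WT libraries and 445, 413 and 422 TPM in the female KO libraries. KO lay above WT in both sexes, and Col5a1 rose by 0.79 (adjusted p = 0.000134) in males and 0.57 (adjusted p = 0.000241) in females. The interaction of Col5a1 was not called, but it was with median-of-ratios scaling (adjusted p = 0.0267) and quantile normalization (0.0285). It was also called without male WT replicate 2 (0.0186) or without female KO replicate 1 (0.0477). Antisense transcripts overlap exons of Col5a1, and whether counting used the strand is not stated in the sources used here. Col5a2, which lies 24.614 kb from Col3a1 on the opposite strand, was at 476, 513 and 487 TPM in the male WT libraries, 682, 741 and 712 TPM in the male KO libraries, 465, 474 and 471 TPM in the female WT libraries and 450.0, 436 and 435 TPM in the female KO libraries. Male KO libraries were the highest, and female KO lay just below female WT. Col5a2 rose in male KO (log2FC 0.53, SE 0.0435, adjusted p = 0.000267), was at -0.093 in females (95% interval -0.15 to -0.033, adjusted p = 0.0633), and the sexes differed by 0.62 (adjusted p = 1.02e-05). With quantile normalization the small female difference was called as a fall, at an adjusted p of 0.0476. Col5a3 was at 154, 173 and 167 TPM in the male WT libraries, 174, 184 and 178 TPM in the male KO libraries, 118, 125 and 125 TPM in the female WT libraries and 120.5, 110.2 and 112 TPM in the female KO libraries. The male libraries were above the female ones, and neither sex had a called difference between KO and WT (log2FC 0.12, adjusted p = 0.157 and -0.10, adjusted p = 0.202). The interaction of Col5a3 was not called either, but it was under the same alternatives as that of Col5a1 (adjusted p of 0.0390 to 0.0460).

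The Col5a1 to Col5a2 ratio was 0.628, 0.664 and 0.656 in male WT and 0.778, 0.779 and 0.769 in male KO. It was 0.617, 0.599 and 0.618 in female WT and 0.988, 0.946 and 0.971 in female KO. The ratio was higher in KO than in WT in every library of both sexes, and highest in female KO, where Col5a1 alone of this pair had risen.

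The largest change of a fibrillar chain was in Col2a1 (chr15:97975602-98004695), the chain of type II collagen, which is best known from cartilage. It was at 1.61, 1.74 and 1.64 TPM in the male WT libraries, 21.4, 22.01 and 17.7 TPM in the male KO libraries, 8.59, 7.26 and 11.3 TPM in the female WT libraries and 20.9, 22.5 and 24.8 TPM in the female KO libraries. The male WT libraries were the lowest of the 12, and KO lay above WT in both sexes. Col2a1 rose in male KO (log2FC 3.00, SE 0.118, adjusted p = 1.33e-05) and in female KO (log2FC 1.26, SE 0.152, adjusted p = 0.00387), with a difference between the sexes of 1.74 (adjusted p = 0.000106). The KO libraries of the sexes overlapped, whereas female WT lay above male WT, at a male over female log2FC of -1.90 (adjusted p = 0.000646). The 5 other cartilage markers listed summed to 13.6 to 16.7 TPM in male WT, 30.7 to 36.1 TPM in male KO, 12.4 to 13.5 TPM in female WT and 22.5 to 25.4 TPM in female KO. Of these, Acan, the main cartilage proteoglycan, rose in both sexes (1.52, adjusted p = 0.000573 and 1.86, adjusted p = 0.000359), Sox9, a transcription factor of cartilage cells, was at 0.70 (adjusted p = 0.00185) and 0.34 (adjusted p = 0.0614), and neither Comp, Hapln1 nor Matn1 passed the minimum. Comp was lower in KO by group mean, at 0.854 and 0.509 TPM in male WT and KO and 1.25 and 0.783 TPM in female WT and KO. The part of such cells in the Col2a1 difference was not tested.

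Type XI collagen pairs with type II in cartilage fibrils and with type V elsewhere. Col11a1 (chr3:114030540-114220718) was at 13.4, 15.02 and 13.9 TPM in the male WT libraries, 21.4, 22.6 and 22.8 TPM in the male KO libraries, 20.9, 24.4 and 22.3 TPM in the female WT libraries and 19.1, 20.4 and 20.2 TPM in the female KO libraries. Male WT stood below the other 3 groups. It rose in male KO (log2FC 0.63, SE 0.0752, adjusted p = 0.00158), was at -0.17 (adjusted p = 0.205) in females, and the sexes differed by 0.79 (adjusted p = 0.000262). Col11a2 ranged from 0.774 to 3.91 TPM and its groups overlapped in both sexes (log2FC -0.30, adjusted p = 0.551 and -0.056, adjusted p = 0.944).

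Col27a1 (chr4:63214004-63334991), a thin-fibril chain, was at 8.69, 11.6 and 9.05 TPM in the male WT libraries, 6.10, 6.41 and 6.40 TPM in the male KO libraries, 8.54, 9.72 and 9.06 TPM in the female WT libraries and 10.1, 10.5 and 9.69 TPM in the female KO libraries. The male KO libraries were the lowest. It fell in male KO (log2FC -0.55, SE 0.125, adjusted p = 0.0208), and this call was lost without any 1 of the 3 male KO libraries (adjusted p of 0.0502 to 0.0637) and with no minimum level (0.0561). In females the groups overlapped (0.14, adjusted p = 0.365), and the sexes differed by -0.69 (adjusted p = 0.00879).

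**Figure D3:**
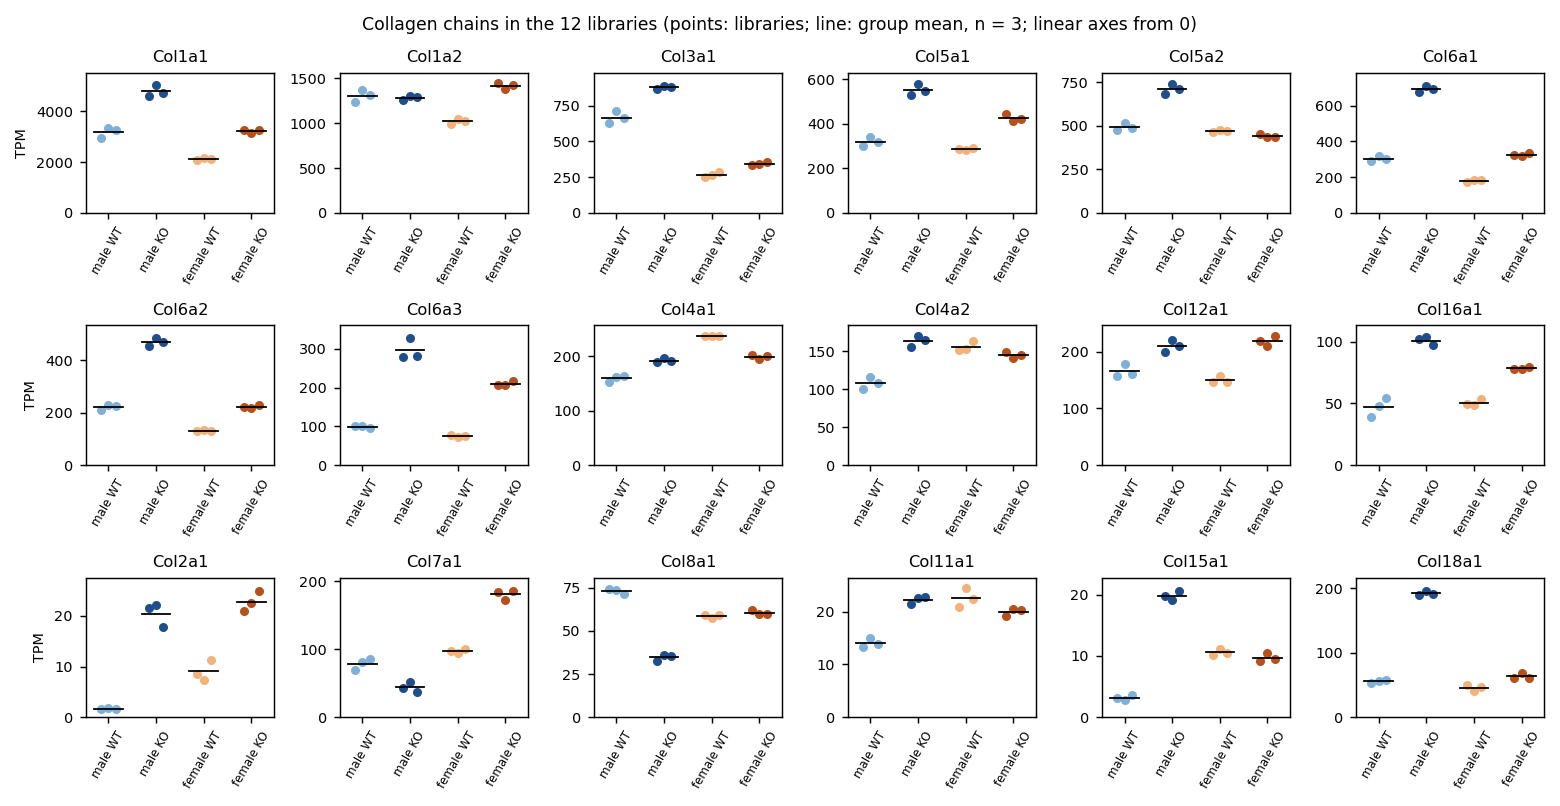
Level of 18 collagen chains in the 12 libraries (TPM, linear axes from 0). Points are libraries and lines are group means of 3. Col1a1 and Col6a1 are higher in KO than in WT in both sexes, Col15a1 and Col18a1 are highest in male KO, and Col7a1 is lowest in male KO and highest in female KO.

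Type VI collagen forms beaded filaments near the cell surface from 1 chain each of Col6a1, Col6a2 and Col6a3. All 3 rose in KO of both sexes. Col6a2 (chr10:76595762-76623630) and Col6a1 (chr10:76708792-76726168) lie 85.161 kb apart on the minus strand of chromosome 10, and Col6a3 (chr1:90765923-90843971) is on chromosome 1. Because the 3 genes moved together, stretches upstream of their RefSeq start sites are shown (RefSeq, GRCm38.p6, read 5′ to 3′ on the strand of the gene). Each runs from 250 bases before the start to the start, or to the first annotated exon met on the way. For Col6a1, with its start at base 76726044, an annotated exon took the nearer part. The stretch printed for it is therefore not next to the start. Capitals mark matches, on either strand, to the core of the TATA box (TATAAA), of the CCAAT box (searched as those 5 letters) and of the GC box (GGGCGG).
Col6a1 (chr10:76726169-76726294, minus strand): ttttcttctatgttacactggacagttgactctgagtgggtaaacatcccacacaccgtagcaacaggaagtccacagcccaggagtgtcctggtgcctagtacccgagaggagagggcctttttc
Col6a2 (chr10:76623631-76623880, minus strand): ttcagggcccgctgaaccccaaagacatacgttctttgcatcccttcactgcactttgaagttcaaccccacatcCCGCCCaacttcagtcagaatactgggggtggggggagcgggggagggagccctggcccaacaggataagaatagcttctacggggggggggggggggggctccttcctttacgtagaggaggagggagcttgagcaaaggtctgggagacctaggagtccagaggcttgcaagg
Col6a3 (chr1:90843972-90844221, minus strand): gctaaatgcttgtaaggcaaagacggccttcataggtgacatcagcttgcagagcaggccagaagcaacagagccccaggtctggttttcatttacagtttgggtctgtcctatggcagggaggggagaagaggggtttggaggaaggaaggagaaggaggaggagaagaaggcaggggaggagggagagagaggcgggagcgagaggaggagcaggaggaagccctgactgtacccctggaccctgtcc
Col6a2 held 1 GC box match and neither of the others held any of the 3 motifs. Over 32851 promoter windows of the 250 bases before the start, with annotated exons kept, 12.4% held a TATA box core. A CCAAT box was in 33.8% and a GC box core in 32.7%. Of the 22 tested chains with an entry, 3, 9 and 15 held them in the same windows. Col12a1, Col9a3, Col1a1, Col2a1, Col5a2 and Col26a1 had no entry. A match is only a run of letters in this window.

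Col6a1 was at 293, 318 and 300.0 TPM in the male WT libraries, 675, 710.1 and 695 TPM in the male KO libraries, 173, 182 and 184 TPM in the female WT libraries and 322, 318 and 332 TPM in the female KO libraries. Col6a2 was at 212, 231 and 227 TPM in the male WT libraries, 454, 486 and 471 TPM in the male KO libraries, 130.3, 133 and 131 TPM in the female WT libraries and 223, 217 and 228 TPM in the female KO libraries. Col6a3 was at 101, 101 and 94.5 TPM in the male WT libraries, 279.7, 327 and 282 TPM in the male KO libraries, 77.4, 71.9 and 73.99 TPM in the female WT libraries and 206, 206 and 217 TPM in the female KO libraries. For all 3 chains, each KO library was above each WT library of its sex, and each male library above each female library of the same label. Col6a1 rose in male KO (log2FC 1.19, SE 0.0409, adjusted p = 7.67e-06) and in female KO (log2FC 0.85, SE 0.0357, adjusted p = 6.61e-05). Col6a2 rose in male KO (log2FC 1.07, SE 0.0452, adjusted p = 1.6e-05) and in female KO (log2FC 0.75, SE 0.0315, adjusted p = 6.61e-05). Col6a3 rose most, by 1.57 in males (SE 0.068, adjusted p = 1.75e-05) and 1.48 in females (SE 0.041, adjusted p = 1.43e-05). The rise was larger in males for Col6a1 and Col6a2 (differences between the sexes of 0.34, adjusted p = 0.00144 and 0.31, adjusted p = 0.00263), while for Col6a3 the difference was 0.089 with a 95% interval of -0.094 to 0.27 (adjusted p = 0.573).

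The 6 type VI chains together were at 626 ± 22.6 TPM in male WT and 1459.9 ± 58.5 TPM in male KO (SD, n = 3), a ratio of 2.33. In females they were at 386 ± 4.67 TPM in WT and 757 ± 18.9 TPM in KO (SD, n = 3), a ratio of 1.96. Col6a4, Col6a5 and Col6a6 added almost nothing. The Col6a1 to Col6a2 ratio was higher in KO than in WT without overlap in both sexes, with means of 1.36 and 1.48 in male WT and KO and of 1.37 and 1.46 in female WT and KO. The Col6a3 to Col6a1 ratio was 0.344, 0.318 and 0.315 in male WT, 0.414, 0.461 and 0.406 in male KO, 0.448, 0.394 and 0.402 in female WT and 0.640, 0.649 and 0.653 in female KO. It was also higher in KO than in WT without overlap in both sexes, and highest in female KO.

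**Figure D4:**
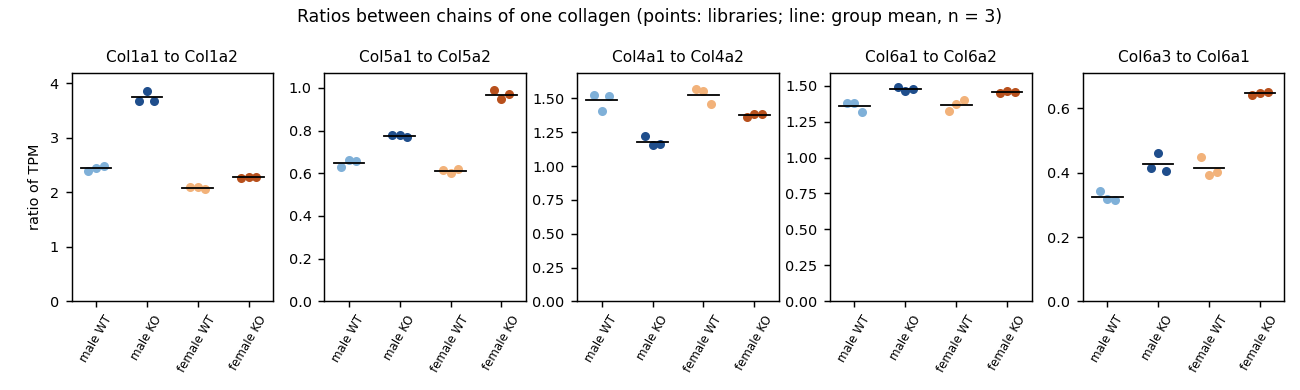
Ratios of TPM between chains of 1 collagen in the 12 libraries (linear axes from 0); points are libraries and lines are group means of 3. Col1a1 to Col1a2 is highest in male KO, at a mean of 3.74, whereas Col5a1 to Col5a2 and Col6a3 to Col6a1 are highest in female KO, at 0.968 and 0.648.

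Of the 4 tested basement membrane chains, 2 rose in male KO and 1 fell in female KO. Over all tested genes, 10.7% were called higher in males and 5.84% lower in females. With 4 chains these counts say little of the class. The sum of all 6 basement membrane chains was 286 ± 12.9 TPM in male WT, 369 ± 12.5 TPM in male KO, 406 ± 5.42 TPM in female WT and 359 ± 9.50 TPM in female KO (SD, n = 3). Female WT was highest and male WT lowest. Col4a1 (chr8:11198423-11312826) and Col4a2 (chr8:11312805-11449287) encode the chains of the common type IV network and are transcribed away from each other. Their annotated exons overlap by 22 bases on opposite strands, so some reads may not be assigned with certainty.

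Col4a1 was at 153, 163 and 164 TPM in the male WT libraries, 190.0, 197 and 191 TPM in the male KO libraries, 238, 238 and 238 TPM in the female WT libraries and 204, 195 and 201 TPM in the female KO libraries. KO lay above WT in males and below WT in females, without overlap in either. Col4a1 rose in male KO (log2FC 0.27, SE 0.0411, adjusted p = 0.00465), fell in female KO (log2FC -0.25, SE 0.0281, adjusted p = 0.00279), and the sexes differed by 0.52 (adjusted p = 2.41e-05). Col4a2 was at 100.3, 116 and 108 TPM in the male WT libraries, 156, 169.8 and 165 TPM in the male KO libraries, 152, 153 and 163 TPM in the female WT libraries and 149, 141 and 145 TPM in the female KO libraries. Male WT was the lowest group. Col4a2 rose in male KO (log2FC 0.60, SE 0.0619, adjusted p = 0.000779), was at -0.10 in females (adjusted p = 0.169), and the sexes differed by 0.70 (adjusted p = 9.49e-05). The Col4a1 to Col4a2 ratio was 1.52, 1.41 and 1.52 in male WT, 1.22, 1.16 and 1.16 in male KO, 1.57, 1.56 and 1.46 in female WT and 1.36, 1.39 and 1.38 in female KO, lower in KO than in WT in both sexes.

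The X-linked pair Col4a5 (chrX:141475385-141689234) and Col4a6 (chrX:141165403-141474076), which lie 1308 bases apart on opposite strands, encode chains of more restricted basement membranes. Col4a5 was at 16.5, 17.1 and 14.96 TPM in the male WT libraries, 9.75, 13.9 and 11.8 TPM in the male KO libraries, 10.3, 9.55 and 8.89 TPM in the female WT libraries and 14.5, 12.6 and 11.5 TPM in the female KO libraries. Male WT was the highest group and female WT the lowest. Neither contrast of KO with WT passed the threshold (-0.44, adjusted p = 0.0556 in males and 0.39, adjusted p = 0.0684 in females), although their difference did (-0.82, adjusted p = 0.00849). The male difference was called with quantile normalization (adjusted p = 0.0238), with median-of-ratios scaling (0.0440), with a minimum level of 5 TPM (0.0482), in a fit of all 12 libraries (0.0216) and without the replicate 2 library of male KO (0.0276). Col4a6 ranged from 1.003 to 1.98 TPM, with no called difference (-0.16, adjusted p = 0.529 and -0.24, adjusted p = 0.381).

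Among fibril-associated chains, the 2 abundant ones, Col12a1 and Col16a1, rose in KO of both sexes, and Col9a3 and Col20a1 were near the minimum. Col12a1 (chr9:79598991-79718831) encodes a long fibril-surface chain of tendon and skin. It was at 157, 178 and 161 TPM in the male WT libraries, 199, 221 and 209 TPM in the male KO libraries, 146, 158 and 146 TPM in the female WT libraries and 219.7, 210.0 and 228 TPM in the female KO libraries. KO was above WT without overlap in both sexes, and the sexes overlapped within each label. Col12a1 rose in male KO (log2FC 0.34, SE 0.0615, adjusted p = 0.00858) and female KO (log2FC 0.55, SE 0.0471, adjusted p = 0.000965), and its interaction was -0.20 (95% interval -0.38 to -0.023, adjusted p = 0.144). Col16a1 (chr4:130047840-130099283) was at 39.3, 47.99 and 54.4 TPM in the male WT libraries, 102, 103 and 97.1 TPM in the male KO libraries, 49.3, 48.3 and 53.7 TPM in the female WT libraries and 77.9, 77.5 and 79.3 TPM in the female KO libraries. The WT libraries of the sexes overlapped and male KO was the highest group. Col16a1 rose in male KO (log2FC 1.09, SE 0.111, adjusted p = 0.000712) and female KO (log2FC 0.62, SE 0.0505, adjusted p = 0.000761). Its difference between the sexes was 0.46 (adjusted p = 0.037), a call that was lost without any 1 of 10 of the 12 libraries (adjusted p of 0.0506 to 0.0871), with no minimum level and with no mean-variance trend. Col9a3 ranged from 0.533 to 2.38 TPM and Col20a1 from 0.701 to 2.44 TPM. Neither was called (-0.08, adjusted p = 0.879 and -0.043, adjusted p = 0.91 for Col9a3, -0.26, adjusted p = 0.367 and -0.50, adjusted p = 0.175 for Col20a1).

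Outside type VI, several of the other chains changed in 1 sex or in opposite directions. The upstream stretches of the 4 chains among them with the largest differences between the sexes are shown in the same way (RefSeq, GRCm38.p6, capitals as above).
Col15a1 (chr4:47207762-47208011, plus strand): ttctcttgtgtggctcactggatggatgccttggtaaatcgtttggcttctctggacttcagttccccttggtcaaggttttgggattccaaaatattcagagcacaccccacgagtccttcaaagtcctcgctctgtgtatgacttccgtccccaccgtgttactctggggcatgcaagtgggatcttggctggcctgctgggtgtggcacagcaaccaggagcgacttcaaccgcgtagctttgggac
Col18a1 (chr10:77166549-77166780, minus strand): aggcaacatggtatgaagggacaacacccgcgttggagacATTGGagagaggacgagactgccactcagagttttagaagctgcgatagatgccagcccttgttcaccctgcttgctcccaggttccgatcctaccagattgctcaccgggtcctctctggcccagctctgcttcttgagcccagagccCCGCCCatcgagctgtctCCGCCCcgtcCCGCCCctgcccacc
Col7a1 (chr9:108953336-108953585, plus strand): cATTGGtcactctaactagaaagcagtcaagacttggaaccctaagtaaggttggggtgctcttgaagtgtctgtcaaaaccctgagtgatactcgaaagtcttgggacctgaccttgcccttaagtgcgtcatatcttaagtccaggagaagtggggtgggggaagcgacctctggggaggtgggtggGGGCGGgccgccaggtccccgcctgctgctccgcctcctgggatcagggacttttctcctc
Col8a1 (chr16:57754738-57754987, minus strand): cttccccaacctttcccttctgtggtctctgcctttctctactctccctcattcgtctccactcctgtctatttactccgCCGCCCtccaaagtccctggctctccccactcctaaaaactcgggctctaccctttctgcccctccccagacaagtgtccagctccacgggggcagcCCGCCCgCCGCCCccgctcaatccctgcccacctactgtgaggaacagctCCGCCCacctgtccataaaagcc
Col18a1 held 1 CCAAT box and 3 GC box matches, Col7a1 held 1 of each, Col8a1 held 4 GC box matches, and Col15a1 held none.

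Col15a1 (chr4:47208161-47313167) and Col18a1 (chr10:77052178-77166548) encode the multiplexins, proteoglycan collagens of the basement membrane zone, and Col18a1 lies 326.009 kb from Col6a1 on the same strand. Col15a1 was at 3.20, 2.79 and 3.65 TPM in the male WT libraries, 19.8, 19.1 and 20.6 TPM in the male KO libraries, 10.2, 11.1 and 10.4 TPM in the female WT libraries and 9.16, 10.4 and 9.58 TPM in the female KO libraries. Male WT was the lowest group, male KO the highest, and the female groups overlapped between them. Col15a1 rose in male KO (log2FC 2.31, SE 0.109, adjusted p = 2.39e-05), was at -0.11 in females (95% interval -0.32 to 0.10, adjusted p = 0.463), and the sexes differed by 2.42 (adjusted p = 5.09e-07). An antisense gene overlaps 14 bases of its exons. Col18a1 was at 53.3, 56.5 and 57.2 TPM in the male WT libraries, 190.3, 197 and 192 TPM in the male KO libraries, 50.3, 40.9 and 46.8 TPM in the female WT libraries and 61.2, 68.6 and 60.4 TPM in the female KO libraries. The male KO libraries were all above 190 TPM and the other 9 libraries at 68.6 TPM or less. Col18a1 rose in male KO (log2FC 1.77, SE 0.0436, adjusted p = 3.02e-06) and less in female KO (log2FC 0.46, SE 0.087, adjusted p = 0.0205), with a difference between the sexes of 1.32 (adjusted p = 6.51e-06). The female call was lost with no minimum level and without any 1 of 4 female libraries, at adjusted p of 0.0508 to 0.0750.

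Col7a1 (chr9:108953586-108984875) encodes the anchoring fibril chain that ties the epidermal basement membrane to the dermis. It was at 69.2, 80.6 and 85.8 TPM in the male WT libraries, 43.1, 51.9 and 37.4 TPM in the male KO libraries, 97.6, 94.4 and 100.1 TPM in the female WT libraries and 184, 172 and 186 TPM in the female KO libraries. In males KO was below WT, in females KO was above WT, and no groups of 1 sex overlapped. Col7a1 fell in male KO (log2FC -0.83, SE 0.129, adjusted p = 0.00495), rose in female KO (log2FC 0.89, SE 0.0431, adjusted p = 0.000112), and the sexes differed by -1.71 (adjusted p = 1.51e-05). A microRNA gene, Mir711, overlaps 36 bases of an exon on the same strand. The epithelial marker sums given above were lower in KO than in WT in both sexes, and their part in these differences was not tested.

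Type VIII collagen, with the chains Col8a1 (chr16:57624258-57754737) and Col8a2 (chr4:126286793-126314330), forms a hexagonal network known from vessel walls and the cornea. Col8a1 was at 74.1, 73.7 and 71.3 TPM in the male WT libraries, 32.8, 36.3 and 35.6 TPM in the male KO libraries, 59.1, 57.4 and 59.1 TPM in the female WT libraries and 61.7, 59.6 and 59.7 TPM in the female KO libraries. Male KO lay well below the other 3 groups. Col8a1 fell in male KO (log2FC -1.05, SE 0.056, adjusted p = 3.74e-05), was at 0.043 in females (95% interval -0.05 to 0.14, adjusted p = 0.529), and the sexes differed by -1.09 (adjusted p = 9.4e-07). Col8a2 ranged from 4.07 to 15.7 TPM and was not called in either sex (0.34, adjusted p = 0.0896 and 0.30, adjusted p = 0.151), although the male difference was called in a fit of all 12 libraries (adjusted p = 0.0448). The Col8a1 to Col8a2 ratio had a mean of 7.12 in male WT and 2.64 in male KO.

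Col10a1 (chr10:34389981-34397085) encodes the collagen of hypertrophic cartilage and overlaps 18 exonic bases of Nt5dc1 on the opposite strand. It was at 1.88, 1.88 and 2.59 TPM in the male WT libraries, 1.58, 1.32 and 1.37 TPM in the male KO libraries, 3.51, 3.06 and 3.75 TPM in the female WT libraries and 7.14, 5.73 and 6.11 TPM in the female KO libraries. Female KO was the highest group and male KO the lowest. Col10a1 rose in female KO (log2FC 0.72, SE 0.127, adjusted p = 0.0162), was at -0.35 (adjusted p = 0.182) in males, and the sexes differed by -1.07 (adjusted p = 0.00345). The female call was lost without any 1 of 4 female libraries (adjusted p of 0.0506 to 0.0552). Col26a1 (chr5:136741759-136883209) was at 6.57, 3.53 and 3.87 TPM in the male WT libraries, 2.45, 2.05 and 1.04 TPM in the male KO libraries, 2.40, 5.73 and 3.81 TPM in the female WT libraries and 1.07, 2.56 and 0 TPM in the female KO libraries. Each male KO library was below each male WT library, and 1 female KO library was listed at 0. It fell in male KO (log2FC -0.99, SE 0.275, adjusted p = 0.0439) and was at -1.30 (adjusted p = 0.138) in females, where the libraries overlapped. The male call was lost without any 1 of the 6 male libraries (adjusted p of 0.0547 to 0.112) and in 4 other alternatives (0.0501 to 0.140).

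Side by side, 10 of the 28 tested chains rose in KO of both sexes: Col1a1, Col2a1, Col3a1, Col5a1, Col6a1, Col6a2, Col6a3, Col12a1, Col16a1 and Col18a1. Of all tested genes, 2.43% were called higher in both. No chain fell in both. Lower calls were 10.9% of all tested genes in males and 5.84% in females, and the share lower in both was not counted. The absence is therefore not read as a result about the chains. Col4a1 rose in males and fell in females, and Col7a1 fell in males and rose in females. Col4a2, Col5a2, Col11a1 and Col15a1 rose and Col8a1, Col26a1 and Col27a1 fell past the threshold in males alone, and Col1a2 and Col10a1 rose past it in females alone. Passing in 1 sex alone does not show that the sexes differ. Since each group may be a single line, sex and line cannot be told apart. The male minus female difference was tested as the interaction over 12 libraries. It called 16 of the 28 chains, 10 with the higher KO over WT difference in males and 6 with the higher in females, where 13.0% of all tested genes were called (6.70% and 6.33%). Among those averaging 10 TPM or more it called 14 of 20, against 14.0% of all genes at that level.

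The chains also differed between the sexes within each label. These comparisons share their libraries with the contrasts above and are given side by side. Between male and female WT, 16 of 28 tested chains were called, 10 higher in males and 6 higher in females, where 12.8% of all tested genes were called (6.26% and 6.56%). Between male and female KO, 18 were called, 13 higher in males and 5 higher in females, where 16.6% of all tested genes were called (8.17% and 8.39%). The libraries did not overlap for 22 and 19 chains, against 33.4% and 35.4% of all tested genes. In WT the widest differences were Col2a1 at -1.90, Col15a1 at -1.46, Col3a1 at 1.32 and Col8a2 at 1.02 (male over female, adjusted p = 0.000646, 0.000423, 3.95e-05 and 0.0017). In KO they were Col7a1 at -2.02, Col10a1 at -1.59, Col18a1 at 1.59 and Col3a1 at 1.35 (adjusted p = 4.79e-05, 0.000368, 6.72e-06 and 1.97e-06). The Col7a1 difference between the WT sexes (-0.31, adjusted p = 0.0465) was lost in 9 of 14 alternatives (adjusted p up to 0.140), and the Col4a2 difference between the KO sexes (0.17, adjusted p = 0.0459) in 8 of 14 (up to 0.133).

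Collagen chains reach the matrix only after modification, folding, secretion, propeptide removal and cross-linking, and 35 genes of these steps were listed from general knowledge. Of these, 32 were tested. In male KO 22 rose and 4 fell, where 10.7% of all tested genes were called higher and 10.9% lower. In female KO 13 rose and 2 fell, where 5.63% were called higher and 5.84% lower. Their median log2FC was 0.34 in males and 0.21 in females. Colgalt2, Adamts3 and Tll2 lay under the minimum.

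Of the 17 tested modification and folding genes, 13 rose in male KO and 7 in female KO, and none fell. Among all tested genes, 10.7% were called higher in males and 5.63% in females, and 10.9% and 5.84% lower. P4ha1 and P4hb encode the catalytic and protein disulfide isomerase subunits of collagen prolyl 4-hydroxylase, and Serpinh1 the collagen-specific chaperone of the endoplasmic reticulum. Serpinh1 was at 1406, 1478 and 1385 TPM in the male WT libraries, 2077, 2085 and 2084 TPM in the male KO libraries, 1268, 1289 and 1263 TPM in the female WT libraries and 1538, 1463 and 1532 TPM in the female KO libraries. KO was above WT in both sexes without overlap, and Serpinh1 rose by 0.55 (adjusted p = 4.97e-05) in males and 0.25 (adjusted p = 0.00245) in females. P4ha1 rose by 0.42 (adjusted p = 0.00043) and 0.23 (adjusted p = 0.00727) and P4hb by 0.37 (adjusted p = 0.000146) and 0.18 (adjusted p = 0.00718). The further prolyl 4-hydroxylase subunit P4ha3 rose by 0.70 (adjusted p = 0.00163) in males and 0.91 (adjusted p = 0.000273) in females, while P4ha2 rose in males (0.96, adjusted p = 0.000438) and was at 0.27 (adjusted p = 0.0678) in females. Plod1 and Plod2 encode lysyl hydroxylases. Plod2 was at 25.4, 25.8 and 26.9 TPM in male WT and 43.6, 42.7 and 45.2 TPM in male KO. It rose in male KO (0.73, adjusted p = 0.000188), was at 0.078 (adjusted p = 0.563) in females, and the sexes differed by 0.65 (adjusted p = 0.000646), whereas Plod1 rose in both (0.57, adjusted p = 0.00032 and 0.28, adjusted p = 0.0266). The prolyl 3-hydroxylase gene P3h1 rose in both sexes (0.62, adjusted p = 0.000274 and 0.31, adjusted p = 0.0106) and P3h3 in males (0.52, adjusted p = 0.0221, against -0.038, adjusted p = 0.738 in females).

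**Figure D5:**
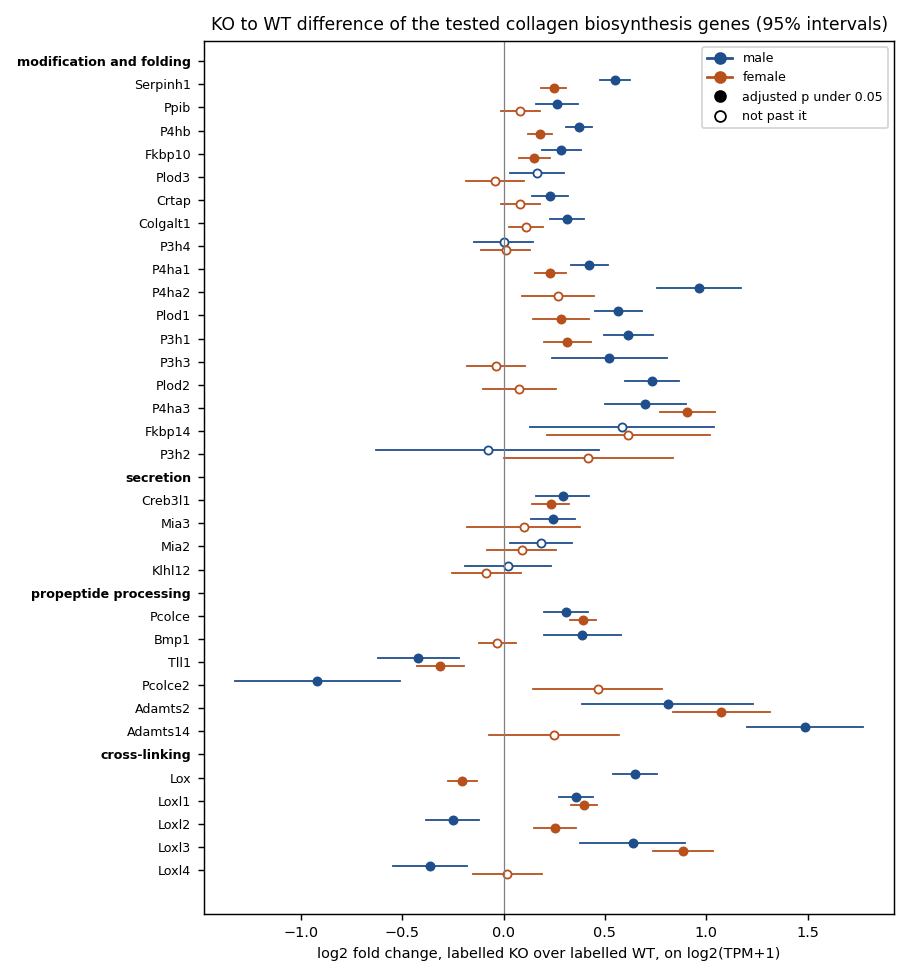
Log2 fold change of KO over WT on the log2(TPM + 1) scale for the 32 tested collagen biosynthesis genes, by step, with 95% intervals, in males (blue) and females (orange). Filled points passed an adjusted p of 0.05. Serpinh1, P4ha1 and P4hb are filled on the right in both sexes, and Lox and Loxl2 have filled points on opposite sides of 0.

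Of the 4 secretion genes, Creb3l1, a transcription factor that drives collagen secretion in bone, rose in both sexes (0.29, adjusted p = 0.0105 and 0.23, adjusted p = 0.0126). Mia3, a cargo receptor for bulky procollagen, rose in males (0.24, adjusted p = 0.0103), and Mia2 and Klhl12 were called in neither. Of the 6 tested propeptide processing genes, 4 rose and 2 fell in male KO, and 2 rose and 1 fell in female KO. Shares of all tested genes called higher and lower were 10.7% and 10.9% in males and 5.63% and 5.84% in females. The N-proteinase genes Adamts2 and Adamts14 gave the largest rises among the 6. Adamts2 rose by 0.81 (adjusted p = 0.019) in males and 1.07 (adjusted p = 0.00136) in females, and Adamts14 by 1.49 (adjusted p = 0.000262) in males, against 0.25 (adjusted p = 0.293) in females. Pcolce2, an enhancer of C-propeptide removal, fell in male KO (-0.92, adjusted p = 0.0101) and was at 0.46 (adjusted p = 0.0735) in females. Pcolce, the more abundant enhancer gene (mean 579 TPM against 27.4 TPM for Pcolce2), rose in both sexes (0.31, adjusted p = 0.00402 and 0.39, adjusted p = 0.000389). Bmp1 rose in males (0.39, adjusted p = 0.0147) and was at -0.030 (adjusted p = 0.662) in females. Tll1, a proteinase of the Bmp1 family, fell in both sexes (-0.42, adjusted p = 0.0133 and -0.31, adjusted p = 0.0103).

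All 5 cross-linking genes of the lysyl oxidase family were called in male KO, beside the 21.6% of all tested genes called in males. Of the 5, 3 rose, where 10.7% of all tested genes were called higher. Lox was at 648, 653 and 629 TPM in the male WT libraries, 960.0, 1075 and 995 TPM in the male KO libraries, 581, 592 and 569 TPM in the female WT libraries and 503, 493 and 517 TPM in the female KO libraries. Male KO was the highest group and female KO the lowest. Lox rose in male KO (log2FC 0.65, SE 0.0457, adjusted p = 0.000134), fell in female KO (log2FC -0.20, SE 0.0291, adjusted p = 0.00779), and the sexes differed by 0.85 (adjusted p = 1.87e-06). Loxl2 went the other way, at -0.25 (adjusted p = 0.0192) in males and 0.25 (adjusted p = 0.015) in females. Loxl3 rose in both (0.64, adjusted p = 0.00736 and 0.88, adjusted p = 0.000444), as did Loxl1 (0.36, adjusted p = 0.000614 and 0.40, adjusted p = 0.000343), and Loxl4 fell in male KO (-0.36, adjusted p = 0.016).

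Of 8 listed collagen receptor genes, 7 were tested, and Itga10 lay under the minimum. In male KO 1 rose (Itgb1, 0.15, adjusted p = 0.0217) and 1 fell (Itga2). In female KO 2 rose (Itga11 and the discoidin domain receptor Ddr2, 0.31, adjusted p = 0.00325) and 1 fell (Ddr1, -0.27, adjusted p = 0.0289). These counts are 28.6% and 42.9% of the 7, beside 21.6% and 11.5% of all tested genes, and with 7 genes they say little of receptors as a group. Itga2, the integrin subunit best known for binding type I collagen in platelets and epithelia, was at 5.27, 4.85 and 5.51 TPM in the male WT libraries, 0.125, 0.173 and 0.258 TPM in the male KO libraries, 1.91, 4.99 and 1.76 TPM in the female WT libraries and 0.910, 1.15 and 3.12 TPM in the female KO libraries. It fell in male KO (-2.39, adjusted p = 7.99e-05) and its female libraries overlapped (-0.50, adjusted p = 0.476). Itga11, a fibroblast collagen-binding integrin subunit, rose in female KO (1.17, adjusted p = 0.00697) and was at 0.49 (adjusted p = 0.0688) in males.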

How the data were processed

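Polyadenylated RNA of 12 MEF libraries, 3 per group, was quantified by the authors with Salmon (1.10.1 in the submitters' processing notes) against GRCm38, and deposited as TPM per gene for 34866 versioned Ensembl identifiers. TPM keep no depth, so the counting error is unknown. Symbols, types and coordinates came from the GENCODE annotation of GRCm38 (99.4% of identifiers matched). Reads shared between overlapping genes were assigned by the authors' quantification.

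The study's own test was made for counts. TPM are not counts, so limma 3.58.1 (R 4.3.3) with a mean-variance trend was used on log2(TPM + 1), for the 12504 genes that averaged 1 TPM or more. Pairs of groups were fitted on 6 libraries and the interaction on 12, with Benjamini-Hochberg adjustment over all tested genes and a threshold of 0.05. On simulated data, 84% and 85% of genes with a log2 change of 1 and 43% and 53% with 0.5 were recovered in the male and female contrasts. Only 100 of the 12504 genes were changed at each size, against 2707 and 1434 called in the data. The changed genes were also drawn without the most weakly expressed ones, so recovery was not simulated for weak chains. The recovery in the data may therefore differ.

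The members, gene lists and tests were chosen with earlier results of these data known. Every chain is named. Values per library are given for chains averaging 10 TPM or more and those called with an absolute log2FC of at least 0.5 in a KO to WT or interaction test. Biosynthesis and receptor genes are named by the same fold rule, with P4ha1, P4hb, Serpinh1, Plod2 and Lox. Others named outside that rule were chosen after their values were seen, and not every called gene is named. Alternatives were the pseudocount, the minimum level, scaling, the trend, a block for replicate number, 1 fit of all libraries, and leaving out each library. Markers of bone (4 genes) summed to 28.6 to 46.4 TPM, fat (3) to 4.64 to 16.5, endothelium (4) to 1.40 to 5.76 and leukocytes (3) to 3.98 to 10.0 over the libraries.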

Additional observations from a re-analysis of the deposited data

Results flagged for a closer look

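For 16 chains the KO to WT difference itself differed between the sexes (limma interaction, adjusted p under 0.05, male minus female log2FC). It was higher in males for Col15a1 (2.42), Col2a1 (1.74), Col18a1 (1.32), Col11a1 (0.79), Col4a2 (0.70), Col5a2 (0.62), Col4a1 (0.52), Col16a1 (0.46), Col6a1 (0.34) and Col6a2 (0.31). It was lower in males for Col7a1 (-1.71), Col8a1 (-1.09), Col10a1 (-1.07), Col4a5 (-0.82), Col27a1 (-0.69) and Col1a2 (-0.50). Since each group may be a single line, sex and line cannot be told apart here.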

How the results depend on the processing

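The number of chains called stayed between 17 and 20 for male KO against WT, 12 and 15 for female KO against WT, 15 and 17 between the WT sexes, 16 and 18 between the KO sexes and 15 and 18 for the interaction under all alternatives run. No called chain difference changed sign, while some that were not called did, such as Col11a2 in females, Col9a3 in both sexes and Col1a2 in males. The side of the threshold changed under at least 1 alternative in 16 of the 140 pairs of chain and comparison. Leaving out 1 library each gave 774 to 835 genes in all for female KO against WT (1434 with all libraries), 1037 to 1243 between the WT sexes (1603), 1328 to 1824 between the KO sexes (2070), 1813 to 2318 for male KO against WT (2707) and 1353 to 1559 for the interaction (1629). Where this left 1 group with 2 libraries, the spread was pooled over the rest. Replicate numbers are not stated to pair libraries, and the deviations of same-numbered libraries correlated at -0.057 to 0.078. With the replicate number as a block, 19, 12, 15, 16 and 16 chains were called in the order above, and 670 genes in all in the female contrast. The chain calls lost with the block were Col10a1 and Col18a1 in females, Col7a1 between the WT sexes, and Col1a2 and Col4a2 between the KO sexes. The summed chain level of female WT was 5456 TPM with median-of-ratios scaling. The depth behind the TPM is unknown. A log2 change of 0.5 was often missed in simulation, where far fewer genes changed than were called in the data.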
